A study of Mus musculus with 3 samples.

Results

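DNA recovered with the even-numbered probes against the long non-coding RNA Pvt1 was described here through all 714 peaks that the authors called in that capture, of 1676 peaks in the series. Each peak was marked as shared when at least 1 base overlapped a peak of the odd-numbered probes (459 peaks), and as even-only otherwise (255 peaks). The method, chromatin isolation by RNA purification (ChIRP), hybridises biotinylated DNA oligonucleotides to an RNA in crosslinked chromatin and sequences the DNA that comes down with it. The cells were C2C12, a mouse myoblast line, at passages 8 to 14, fixed with 1% glutaraldehyde for 15 min. The even capture and the odd capture each used 400 pmol of their own 9 probes on chromatin sheared to about 50 to 130 bp. The unprecipitated DNA, the background for both, came from the same line with fragments of about 400 bp. The submitters describe separate biological samples for the 2 captures, but both titles carry replicate number 1, and each capture was a single library. No value below therefore has a replicate error, no test between conditions could be run, and intervals are Wilson 95% intervals that cover counting error only.

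Pvt1 is transcribed from the locus beside the Myc oncogene, is spliced into many isoforms and hosts several microRNAs. A long non-coding RNA held in the nucleus can be crosslinked to DNA at distant loci, and such contacts are what a ChIRP peak is meant to mark. Splitting the probes into an odd and an even set that target different parts of the RNA is the usual guard of the method, because a region reached through the RNA should come down with either set, while a region that binds an oligonucleotide directly should come down with that set alone.

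The sequences of the even probes are given first because this capture used them. They are written 5′ to 3′ and are antisense to the RNA, and capitals mark no match here. Each probe in the list below matched the Pvt1 gene on GRCm38 over its whole length, at 1 genomic site.

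even probe 1: TTCAGGAAGTCTCCAGAGAG
even probe 3: CCTTCTGGAACGCTTAAAGG
even probe 4: TCTTAGGGTCAGTATCATGG
even probe 5: TGCTTAAAGACCACAGAGGC
even probe 6: ATTCTAGAGCCTTCAGGAAG
even probe 7: AATGTCTACTTGTTGGCCAA
even probe 8: AGAATTTCAGAGGGCACTCG
even probe 9: TAAAGCATCCAGGGCAGAAC

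The remaining one, even probe 2 (ACTCGGCTCTATTTTAGAGG), had no full match in the genome but matched 2 annotated spliced transcripts of Pvt1. It therefore had no genomic site at which a peak could be scored.

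Pvt1 itself (ENSMUSG00000097039.8, chr15:62037986-62378096, plus strand of GRCm38) held 8 even peaks, and all 8 were shared. Their pileups, the number of extended tags stacked at the summit, were 7, 6, 3, 6, 12, 3, 9 and 20 in order from the start of the gene. The odd peaks paired with them had 7, 9, 3, 13, 13, 4, 16 and 22 tags. The neighbouring even peaks at chr15:62242104-62242254 and chr15:62242336-62242494 overlap the same odd peak. Its 13 tags therefore appear for both, and its summit may lie at either. The even value was below the paired odd value at 6 of the 8 peaks and equal at the other 2. No even peak of the locus was thus higher than the odd peak paired with it. The peak of 20 tags was the highest of the whole even list, and the gene with the next most even peaks had 2.

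Even peaks in Pvt1 did not keep to even probe sites. Of the 8 peaks, 2 lay over sites of even probes alone, with 3 and 12 tags, 3 lay over sites of both sets, with 6, 9 and 20 tags, and 3 lay over sites of odd probes alone, with 7, 6 and 3 tags. The first of these 3 covered odd probe 1 in the first exon, chr15:62037974-62038128, with 7 tags in both captures although no even probe matched there. The second covered odd probe 4 at chr15:62242104-62242254 with 6 even tags, and its odd peak of 13 tags also spans the even peak beside it. The third covered odd probe 5 with 3 even and 4 odd tags. In the other direction, even probe 8 had a site in the gene but no even peak over it. The 3 peaks that covered a single site of an odd probe alone ended between 1 bp before and 6 bp past the 5′ end of that probe, and the 2 over a single even probe between 1 bp before and 11 bp past it. Why even peaks stood at odd probe sites was not tested.

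The highest peak is shown on the plus strand, with the sites of odd probe 9 and even probe 9 in capitals in that order.

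Pvt1 peak of 20 tags, chr15:62250661-62250948: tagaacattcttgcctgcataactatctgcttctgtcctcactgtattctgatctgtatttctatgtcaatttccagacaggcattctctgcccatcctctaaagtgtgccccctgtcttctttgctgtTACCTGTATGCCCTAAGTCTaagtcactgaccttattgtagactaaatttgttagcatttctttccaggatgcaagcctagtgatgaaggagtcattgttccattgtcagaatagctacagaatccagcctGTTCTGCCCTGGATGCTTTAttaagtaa

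The 5′ end of even probe 9 lies 8 bp inside the right end of that peak. No even peak overlapped Myc, and the nearest, the first peak of Pvt1, was 47600 bp from it.

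**Figure D1:**
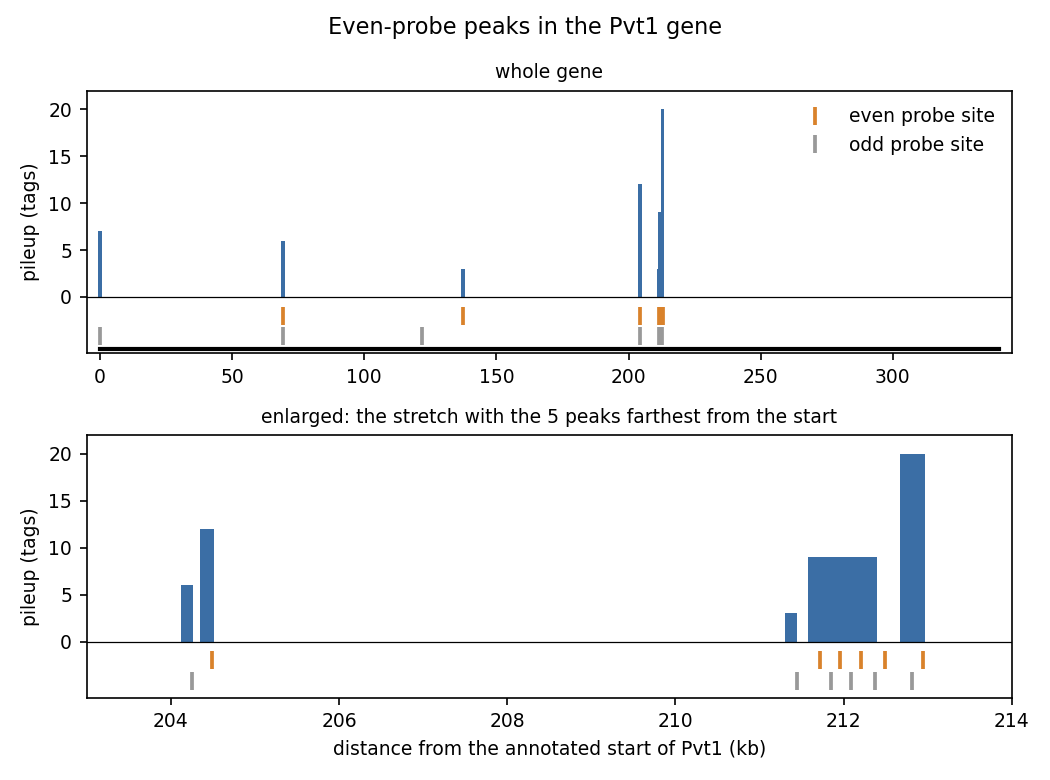
Even-probe peaks in Pvt1, by distance from the annotated gene start in kb (horizontal axis) and pileup in tags (vertical axis, bars), with ticks for the genomic sites of even and odd probes and a black line for the gene in the upper panel. The lower panel enlarges the stretch with 5 of the 8 peaks; bars of 6 and 3 tags stand over sites of odd probes alone, and the highest bar has 20 tags.

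The even list was made of shallow peaks. The even library had 1352067 tags, of which 12715 (0.940%) remained once the caller kept 1 tag per position, against 5104779 of 5375267 (94.97%) in the unprecipitated DNA. Over the 714 peaks the pileup ranged from 2 to 20 tags with a median of 4, and 324 peaks (45.4%) rested on 3 tags or fewer. Shared peaks ranged from 3 to 20 tags with a mean of 4.81, and even-only peaks from 2 to 17 with a mean of 3.64. Of the shared peaks 148 (32.2%, interval 28.1 to 36.7) had 3 tags or fewer, against 176 of the even-only peaks (69.0%, interval 63.1 to 74.4). A low pileup makes it harder to pass the caller's threshold in both lists, so height and sharing are not independent. Of the 390 even peaks with 4 tags or more, 272 (69.7%) had exactly the length that tags starting at consecutive bases would give. So did 225 of 311 shared peaks (72.3%) and 47 of 79 even-only peaks (59.5%) of that height. Whether the tags of a pileup come from separate captured fragments was not tested.

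Sharing rose with height up to 9 tags and was lower above that. An odd peak was present at 45.7% of even peaks of up to 3 tags (148 of 324), at 69.7% of those of 4 tags (115 of 165), at 85.7% of those of 5 or 6 tags (120 of 140) and at 93.8% of those of 7 to 9 tags (60 of 64, interval 85.0 to 97.5). Among the highest, with 10 tags or more, it was 76.2% (16 of 21, interval 54.9 to 89.4), and the intervals of these last 2 classes overlapped.

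**Figure D2:**
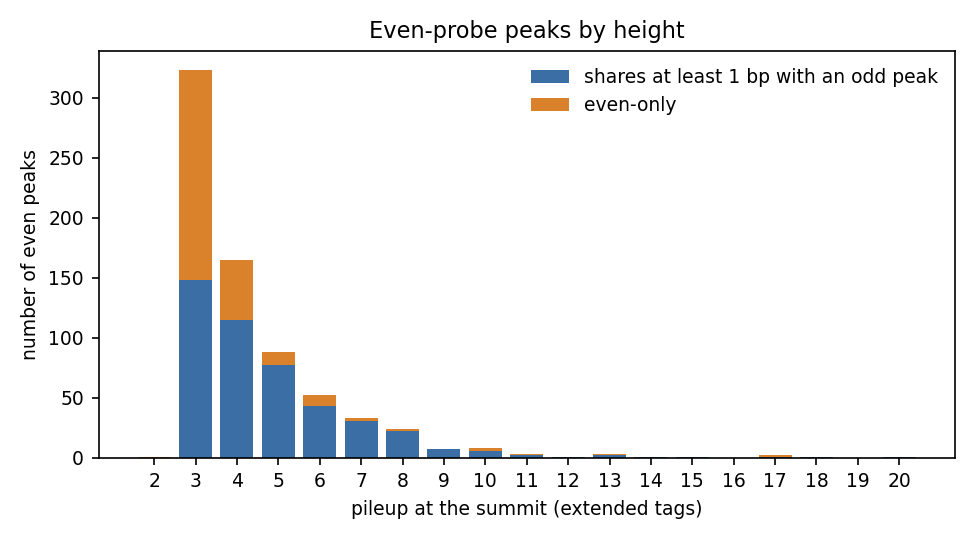
Number of even peaks (vertical axis) at each pileup in extended tags (horizontal axis), stacked by whether the peak shares at least 1 bp with an odd peak. Even-only peaks are the larger part of the bar at 3 tags and the smaller part at 5 to 9 tags.

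At the 459 shared peaks the even pileup was higher than the odd one at 110, equal at 161 and lower at 188, with a median difference of 0 tags and a range from 9 tags lower to 14 tags higher. It was higher by 3 tags or more at 8 peaks and lower by 3 or more at 37. The odd peak that spans neighbouring even peaks in Pvt1 was compared with each of them. The peak with the largest excess in the even capture lay in an intron of Arhgap24, which encodes a GTPase-activating protein for Rac (chr5:102857269-102857437). It had 18 even and 4 odd tags, and its whole length was soft-masked as repeat. At Commd8 the even peak had 17 tags and the odd peak 12, and at Gbf1, which encodes an activator of Arf GTPases, they had 9 and 5. The largest deficit was at chr5:138694882-138695028, an intergenic place with 3 even and 12 odd tags. These single-library differences have no replicate check, and the odd library kept more tags (14203).

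**Figure D3:**
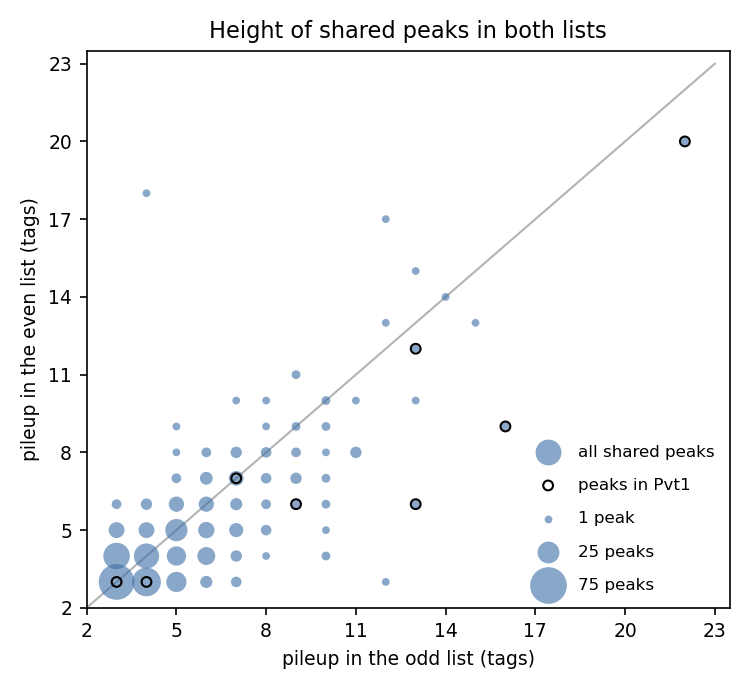
Pileup of the 459 shared peaks in the odd list (horizontal axis) and the even list (vertical axis), both in tags; circle area follows the number of peaks at that pair of values, open circles are the 8 peaks in Pvt1, and the grey line marks equality. The lone point at 4 odd and 18 even tags is the peak in Arhgap24, and no Pvt1 peak lies above the line.

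Peaks in the even list carried short sequences that recur at their edges. A set of 20 words of 8 bases was taken from the edges of odd peaks that touch no even peak, and each was sought within 20 bp of either side of both edges of the even peaks, read inward. At least 1 of the 20 stood at 561 of the 714 even peaks (78.6%), against 4.22% of all gap-free placements of a 147 bp window in the reference. Shared peaks had one more often (401 of 459, 87.4%, interval 84.0 to 90.1) than even-only peaks (160 of 255, 62.7%, interval 56.7 to 68.4). The set also held TTTTTTTT, at 50 shared and 47 even-only peaks, and words of T followed by G, such as TTTGGGGG, at 17 and 24. By share, both were more frequent in even-only peaks, and TTTTTTTT was the most frequent word of all in that group. The most frequent of the set over all even peaks, ATTTCCCC, stood at 201 shared and 41 even-only peaks and began at a median of 8 bases inside the edge. It began 6 to 11 bp inside the edge at 213 of the 242 peaks that had it.

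The edges below are shown because they align on that word, which is in capitals. They are 30 bases of reference sequence (GRCm38) read inward from the peak edge, the first 4 from shared and the last 3 from even-only peaks.

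Clstn1 intron, chr4:149609082-149609111, minus strand: ttattccgagtgATTTCCCCctaaaagcca
Cass4 intron, chr2:172401225-172401254, minus strand: ttttctgagtgATTTCCCCtctgggccgct
intergenic, chr1:134367782-134367811, plus strand: gtgtgtgtgtgATTTCCCCcttttttctct
Mdga2 intron, chr12:66817760-66817789, plus strand: atggacagtgATTTCCCCattcctctcgcc
intergenic, chr12:79954874-79954903, plus strand: tgaatgtgATTTCCCCccccctttggggga
intergenic, chr6:40528288-40528317, plus strand: gggacagtgATTTCCCCcagctcttctttt
intergenic, chr7:88179825-88179854, plus strand: ttggtgaagATTTCCCCcattgtctaggct

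These peaks had 10 (Clstn1, a calsyntenin), 9 (Cass4), 8 and 8 (Mdga2) even tags with 8, 9, 7 and 9 odd tags. The 3 even-only peaks had 5 tags each.

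Longer versions of the word were held by fewer peaks, and more of those peaks were shared. TGATTTCCCC stood at 143 shared and 25 even-only peaks, and at 0.0111% of placements. AGTGATTTCCCC stood at 75 and 8, and GAGTGATTTCCCC, of 13 bases, at 37 shared peaks, 2 even-only peaks and 5 odd peaks with no even partner. In the reference, 9.1e-05% of placements had the 13-base form. No probe of either set shared more than 5 bases in a row with it, on either strand. The words overlap one another, so their counts are not independent.

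Except for A, runs of a single base divided the 2 kinds of even peak the other way from the word set as a whole. The set and the runs overlap, because some of its words are made of T alone or of T and G. Runs of 10 or more G, read inward within 30 bp of an edge, stood at 50 of 255 even-only peaks (19.6%, interval 15.2 to 24.9) and at 20 of 459 shared peaks (4.36%, interval 2.84 to 6.63). Odd peaks with no even partner had them at 17 of 504 (3.37%), and placements in the reference at 0.207%. In the opposite sense, a run of C read inward stood at 8 even-only peaks (3.14%) and 4 shared peaks (0.871%), although the reference holds runs of G and of C equally often (0.206%). Runs of T stood at 55 even-only peaks (21.6%) and 47 shared peaks (10.2%), against 1.23% of placements, and runs of A at 6 and 11 (2.35% and 2.40%), also against 1.23%. So G and T runs were more frequent than the C and A runs that are their opposite sense. Runs of G, T and C were each more frequent in even-only than in shared peaks, those of C on few peaks. The even-only mark rests on 2 lists of unlike tag size, 54 bp in the even and 105 bp in the odd library. Whether tag size bears on these shares was not tested. The search for these runs was chosen after the values were seen.

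The edges below are from 4 high even-only peaks with such a run, shown from 10 bp outside the edge to 40 bp inside, read inward, with runs of 10 or more G in capitals.

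Klhl29 intron, 10 tags, chr12:5201117-5201166, minus strand: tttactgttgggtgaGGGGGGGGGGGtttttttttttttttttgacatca
Cbr3 intron, 10 tags, chr16:93686722-93686771, minus strand: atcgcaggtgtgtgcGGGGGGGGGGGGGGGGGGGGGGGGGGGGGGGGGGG
Acsf2 intron, 8 tags, chr11:94572873-94572922, plus strand: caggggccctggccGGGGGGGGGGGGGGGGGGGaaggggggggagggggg
Cdrt4 intron, 7 tags, chr11:62954682-62954731, minus strand: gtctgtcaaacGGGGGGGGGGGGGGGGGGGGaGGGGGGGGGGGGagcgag

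The 70 even peaks with a run of G had a median run of 16 bases. Peaks with it were shared in 28.6% of cases (20 of 70, interval 19.3 to 40.1), while peaks with ATTTCCCC were shared in 83.1% (201 of 242, interval 77.8 to 87.3). Even peaks with neither a word, a run of G nor a run of 12 probe bases numbered 103, and 38 of them (36.9%) were shared. Of the even-only peaks 65 (25.5%) had none of these features, against 38 shared peaks (8.28%).

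**Figure D4:**
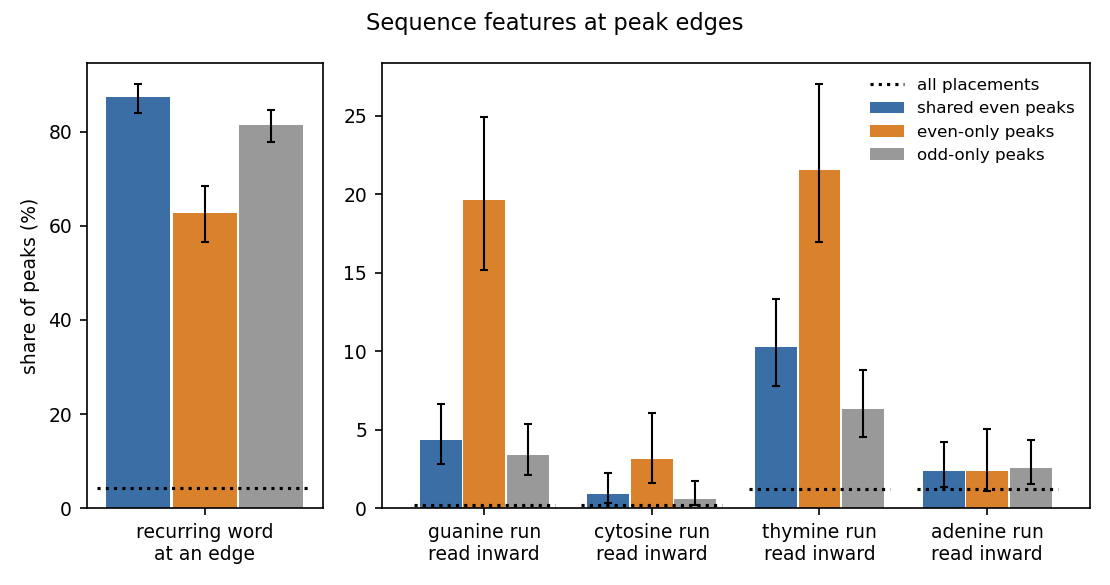
Share of peaks in percent (vertical axis, from 0) that hold a recurring 8-base word within 20 bp of an edge (left panel) or a run of 10 or more of 1 base within 30 bp of an edge (right panel, on its own scale). Bars are shared even, even-only and odd-only peaks, error bars are Wilson 95% intervals, and dotted lines give the share of all placements in the reference; even-only bars are highest for guanine (19.6%) and thymine runs (21.6%).

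**Figure D5:**
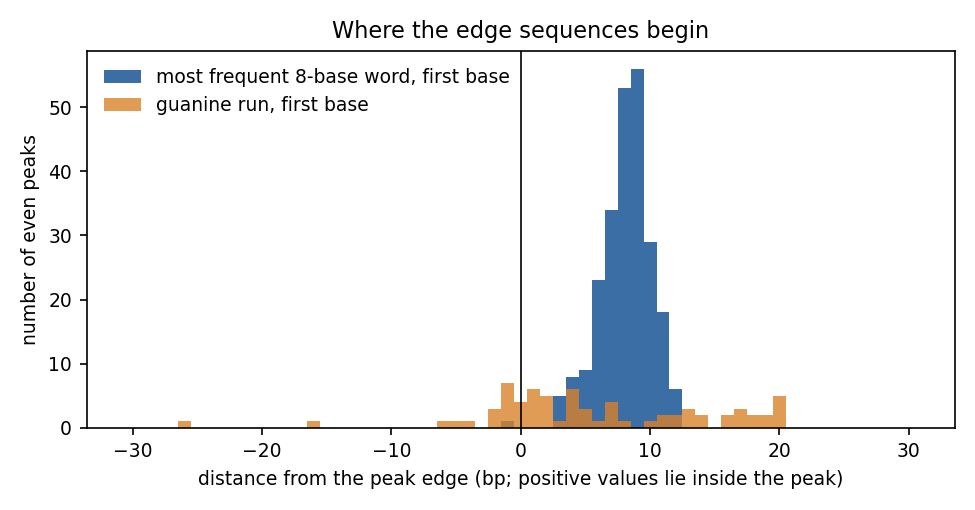
Number of even peaks (vertical axis) by the distance in bp from the peak edge to the first base of the most frequent word (242 peaks) or of the guanine run (70 peaks), read inward with positive values inside the peak. The word is gathered at 6 to 11 bp inside the edge, while the guanine runs begin over a wider stretch.

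Even-only peaks of 7 tags or more numbered 9. A run of G at an edge, as defined above, stood at 5 of the 9 (55.6%, interval 26.7 to 81.1) and at 3 of 76 shared peaks of that height (3.95%, interval 1.35 to 10.97). Under a wider definition, also chosen after the values were seen, of 10 or more G or C in a row anywhere in the peak or 30 bp beside it, the counts were 9 of 9 and 10 of 76 (13.2%), against 0.776% of placements. Kank1, Gm12766, Gm12648 and the chr8 place below met the wider definition alone. Among the 9 was a peak in an intron of Kank1, an adaptor between microtubules and focal adhesions (13 tags, chr19:25414430-25414690, fold enrichment 13.5 as the authors' caller gave it). Others lay in the non-coding Gm12766 (11 tags), Cbr3, a carbonyl reductase, and Klhl29, of the kelch-like family (10 tags each). Acsf2, an acyl-CoA synthetase, and the non-coding Gm12648 had 8 tags each, and Cdrt4 and an intergenic place at chr8:88093956-88094109 had 7. Some also had a higher implied background than the uniform 0.0208 tags that the fold values imply for 706 of the 714 peaks. That uniform value is what the 12715 kept tags, extended to 147 bp, give over the caller's effective genome size of 90000000. It is thus a floor set by the caller, not a level measured in the unprecipitated DNA, and the fold values depend on that setting. The implied background was 0.0797 tags at Gm12766 and 0.0399 at Kank1. In all 8 peaks had an implied background above that floor, 4 shared and 4 even-only.

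Even-only peaks of 6 tags included an exon of Amt, which encodes an enzyme of glycine cleavage, with 96.7% of the peak soft-masked. Others of 6 tags lay in Dpp10, a subunit of potassium channels, Ube2g1, a ubiquitin-conjugating enzyme, Znhit1, a subunit of the SRCAP chromatin remodeller, Ccdc137 and March3. The peaks in Ube2g1, Znhit1, Ccdc137 and March3 had a run of G. Among shared peaks inside protein-coding genes with an established name, leaving out intergenic peaks and those only upstream of a gene, the highest after Arhgap24 lay in introns of Stag1, a cohesin subunit (15 even and 13 odd tags), Unc5d, a netrin receptor (13 and 15), and Gli2, a transcription factor of hedgehog signalling (11 and 9). In the same ranking, Ears2, which encodes a mitochondrial tRNA synthetase, had the peak that also lies in the promoter of Ubfd1 (11 and 9). Then came Clstn1 (10 and 8), Fhod3, a formin of striated muscle sarcomeres (10 and 10), Cass4 (9 and 9), Mtap, an enzyme of methionine salvage (9 and 8), and Gbf1. At these genes, apart from Gbf1, the captures differed by at most 2 tags.

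Part matches to probes were found at even peaks outside Pvt1, for both probe sets alike. Runs of 12 or more probe bases stood in 10 of 706 peaks for the even probes (1.42%, against 0.270% of placements) and in 11 for the odd probes (1.56%, against 0.269%), which were not used in this capture. Of these 21 runs, 18 lay within 20 bp of a peak edge, and 18 were at shared peaks. The longest 3 and the longest for an even probe at an even-only peak are shown as the probe's own sequence, with the matching bases in capitals.

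odd probe 2 in a Ythdf3 intron, chr3:16210392-16210538: gGCATCCAGGCTGAAGAATC
odd probe 3 at an intergenic place, chr2:159854697-159854843: CTTGAATTCTCAATGGCCac
odd probe 7 in a Gm10069 intron, chr6:128465791-128465937: gtCCCTCACTACACAGAAAG
even probe 1 at an intergenic place, chr1:124958538-124958684: TTCAGGAAGTCTCCAGagag

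The Ythdf3 peak had 3 even and 7 odd tags. The chr2 place, which matched 18 bases of an odd probe, was nevertheless even-only, with 3 tags, as was the chr1 place, with 3 tags and 16 bases of an even probe. Upstream of the microRNA genes Mir192 and Mir194-2, which lie side by side, a shared peak of 5 tags held 15 bases of even probe 4. Peaks with a probe run, Pvt1 included, were shared in 89.7% of cases (26 of 29, interval 73.6 to 96.4).

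By annotation, 42 even peaks (5.88%, interval 4.38 to 7.86) had their summit in the 2000 bp upstream of a gene, against 4.01% of the gap-free assembly. Exons held 4.48% against 4.52%, introns 44.5% against 40.1%, and intergenic sequence 45.1% against 51.4%. Promoters took 7.84% of even-only peaks (20, interval 5.13 to 11.8) and 4.79% of shared peaks (22, interval 3.19 to 7.15), and these intervals overlapped. The nearest gene start was a median of 20879 bp from the summit, and 40 peaks lay within 1000 bp of one. Soft-masked sequence covered a median of 16.4% of a shared peak and 29.3% of an even-only peak. Of all even peaks, 192 had no masked base and 46 were masked throughout. The assembly was 36.4% masked, but that is a share of all bases and not a median over windows. It therefore does not show whether peaks hold fewer repeats than random places. Peaks with over 50% masked were 95 of the shared (20.7%) and 73 of the even-only (28.6%). GC content had a median of 43.5% over even peaks, while 41.7% of all bases of the assembly are G or C. Of the 22 peaks at or above 60% GC, 17 were even-only.

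The window of 2000 bp upstream, which the design text names, held an even peak at 53 genes (0.0956% of 55413 annotated genes), on 47 peaks, and 25 of the genes were protein-coding (0.114% of 21938). Even-only peaks gave 24 genes (0.0433%), of which 13 were protein-coding (0.0593%), and shared peaks gave 29 (0.0523%), of which 12 were protein-coding (0.0547%). The 53 and the 29 include Pvt1 itself and Gm27913, Gm27718 and Gm27957, which are annotated inside Pvt1. Their peaks are peaks of the captured locus, at probe sites. Even-only promoter peaks were low: the highest had 5 tags, and 15 of the 22 had 3. Of those 22 peaks, 9 had a recurring word, 5 a run of G (some had both), and 10 had none of word, run of G or probe run.

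Named even-only promoter genes were Fam177a with 5 tags, and Csf1r, Extl3, Krt7, Map2k6 and Poll with 4 each. Csf1r is the receptor of a macrophage growth factor, Extl3 a glycosyltransferase of heparan sulfate synthesis, Krt7 a keratin of simple epithelia, Map2k6 a kinase that activates p38, and Poll a DNA polymerase of repair. Those with 3 tags were Ak8, an adenylate kinase, Mrpl45, a protein of the mitochondrial ribosome, Pnlip, the pancreatic lipase, Usp48, a deubiquitinase, and Sertad4 and Spaca9. The peak centre was 336 bp upstream of the start at Csf1r, 1767 bp at Fam177a and 909 bp at Krt7. At Extl3 it was 2034 bp upstream, so only part of that peak lies in the window of 2000 bp. At Map2k6, Poll, Ak8 and Mrpl45 the centre was 25, 44, 3 and 3 bp past the start, inside the gene. The peak at Poll also served the neighbouring Gm17018, and that at Ak8 also served Spaca9. No word, run of G or probe run was found at Extl3, Poll, Ak8, Spaca9, Mrpl45 or Usp48.

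The peak that reaches into the promoter window of Extl3 is shown whole on the gene's strand, although its centre lies outside the window. It is an even-only peak of 4 tags with none of the features, so no letters are in capitals.

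Extl3, chr14:65151816-65151963, minus strand: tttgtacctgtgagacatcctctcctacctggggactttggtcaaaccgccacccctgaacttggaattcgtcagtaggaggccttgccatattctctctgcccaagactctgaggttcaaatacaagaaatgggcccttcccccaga

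Shared promoter genes reached higher pileups. Commd8 had 17 even and 12 odd tags, Ubfd1 11 and 9, Vps29, a retromer subunit, 8 and 11, and Tbc1d14, a regulator of autophagy, 7 and 7. Col6a4, a collagen VI chain, had 5 and 8, Nup214, a nucleoporin, 5 and 5, and Snrpb, a core protein of the spliceosome, 4 and 3. Cfap52, Pgrmc2 and Rnf180 had 3 even tags with 5, 3 and 5 odd tags. The even-only promoter peaks therefore lay in the lower part of the range of the shared ones.

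Gene bodies held an even peak at 378 genes (0.682%), of which 297 were protein-coding (1.35%). Even-only peaks touched 145 genes (0.262%), 124 of them protein-coding (0.565%), and shared peaks 241 (0.435%), 180 of them protein-coding (0.82%). The 297 were long genes, with a median length of 114392 bp against 17425 bp for all protein-coding genes, and 168 of the 2492 protein-coding genes over 100000 bp had a peak (6.74%). Beside Pvt1, 18 genes had 2 even peaks each. In Runx1, a transcription factor gene, both peaks were shared, with 5 tags each. Fgfr2 (4 and 4), Syt9 (6 and 4), Kif26b (3 and 3), A330093E20Rik (6 and 4) and Gm37240 (4 and 3) were also shared throughout. Klhl29 (10 and 5), Smyd3 (4 and 8), Arhgap35 (3 and 8), Lrrc4c (5 and 4), Trerf1 (4 and 5), Cntnap5b (3 and 4), Dock1 (3 and 3) and Fmn1 (3 and 3) had 1 peak of each kind, the even-only one named first. In Diras2 (4 and 3), Dgkk (4 and 3) and D7Ertd443e (3 and 3) both were even-only. Only 5 pairs of neighbouring even peaks lay within 10000 bp of each other, 4 in Pvt1 and 1 in Diras2, with a gap of 2313 bp.

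The 11 lists held 257 genes, chosen for muscle, metabolism, cell cycle, chromatin and neuronal functions. In the promoter 0 of them had an even peak. The share over all protein-coding genes was only 0.114%, so this count does not set the lists apart. In the gene 10 had an even peak (3.89%), against 1.35% of all protein-coding genes. The 10 had a median length of 252763 bp, and the 258 annotated entries for the 257 symbols (Atp5o has 2) had 28957.5 bp, so both exceeded the median of all protein-coding genes. In the list of the Myc network and cell cycle, 2 of 25 members had one. They were Max, the dimerisation partner of Myc (5 tags, even-only, with a run of G), and Ccnd3, a D-type cyclin (3 tags, even-only, fully soft-masked). Of the 28 chromatin regulators, Stag1 and the acetyltransferase gene Crebbp (5 even and 3 odd tags) had shared peaks. Among 24 genes of muscle atrophy and FoxO signalling, Igf1r, a growth factor receptor (8 and 8), and Runx1 had shared peaks. Tcf7l2, an effector of Wnt signalling, was the 1 of 25 in its list, with 3 even-only tags. Unc5d, Cntnap2 (4 and 3) and Nrxn3 (4 and 6), which are neuronal genes, were the 3 of 25 axon guidance and synapse genes.

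The other 6 lists, with 130 genes, had no member with a peak. They were put together for that reason, so 0 of 130 was fixed by the choice and gives no limit for the group. Taken singly, the lists allow shares of up to 12% (myogenic and muscle structure) to 16.7% (hepatocyte genes). Each limit is 3 divided by the number of genes in the list, not a Wilson interval. The share over all protein-coding genes, 1.35%, lies within each limit, so these counts do not set the 6 lists apart. They held apoptosis and Bcl2 family, autophagy, mitochondrial dynamics and mitophagy, respiratory chain, myogenic and muscle structure, and hepatocyte genes. For the loci that mark the myoblast line, the nearest even peak was 75234 bp away at Myog, 447873 bp at Ckm, 1575539 bp at Des, 1674757 bp at Acta1, 3220664 bp at Myf5 and 3571311 bp at Myod1. A DNA capture does not measure expression, so these distances do not check the cell type.

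Across chromosomes the even list had 0.270 peaks per Mb of gap-free sequence. Chromosome 18 had the most at 0.366 (32 peaks), followed by chromosome 16 at 0.358 (34 peaks), and Y the least at 0.0794 (7 peaks). From even-only peaks the nearest odd peak was a median of 847547 bp away, 1 of the 255 was within 10000 bp and 19 were within 100000 bp. The odd list had only 962 peaks over 2647.52 Mb, and no distance for random places was computed. These distances therefore do not set even-only peaks apart.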

How the data were processed

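Even, odd and unprecipitated libraries from C2C12 cells were aligned to GRCm38/mm10 and peaks were called for each probe set by the authors with MACS2 version 2.1 (2.1.0.20151222 per the file headers). Per the file headers, the caller extended each tag to 147 bp, 1 tag was kept per position, the q cutoff was 0.05 and the effective genome size was 90000000, a preset for a nematode that differs from the default settings named in the labels. The deposited signal is the pileup in extended tags; −log10 p and −log10 q values and the fold enrichment, a ratio over background, are also the authors'. These were not recomputed. The odd library had a tag size of 105 bp and the even library 54 bp per the file headers.

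Peaks were intersected with GENCODE release 21 genes and the GRCm38 RefSeq sequence in Python 3.11.15 with NumPy 2.4.6, pandas 2.3.3 and SciPy 1.17.1, at an overlap of at least 1 bp. A gene has 1 start here, the annotated gene boundary. A summit was classed as promoter first, then exon, then intron, and otherwise intergenic. Backgrounds count every gap-free placement of a 147 bp window. The code was tested on simulated sequence. No test was run, because each probe set has 1 library.

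Members, gene lists and the word search were chosen with earlier results of these data known. Named genes were Pvt1 and Myc, the protein-coding genes without a provisional name that had the highest even-only (up to 15) and shared (up to 10) promoter peaks, the 10 highest of each in gene bodies, list members with a peak, and genes with 2 or more peaks; ties went by name. Genes, runs of G and paired differences outside that rule were named after their values were seen. Alternatives covered overlap, promoter width, gene type, q, pileup, masking and word length. Some items that this rule names are not reported here.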

Additional observations from a re-analysis of the deposited data

How the results depend on the processing

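Of 48 alternatives over 12 results, 34 stayed within the main 95% interval of a share or within 1.5 times a count; the 4 on runs of G or their removal were chosen after seeing the data. The share of even peaks with an odd partner was 29.8% once peaks carrying a recurring word or a probe match were removed and 36.9% with runs of G left out as well. Genes with a promoter peak numbered 94 with 5000 bp, 25 with protein-coding genes only and 30 at a pileup of at least 4; genes with a peak in the body numbered 209 at that pileup. With protein-coding genes only, promoters held 2.66%, exons 3.08%, introns 39.6% and intergenic sequence 54.6% of peaks. A recurring word stood at 87.5% of peaks with words of 7 bases, 60.6% with words of 9 and 83.6% at a pileup of at least 4, where 27.8% of even-only peaks had a run of G. The causes were not tested, except that fewer genes or peaks enter with protein-coding genes only or a higher pileup. No paired analysis was possible because each probe set has 1 library and the groups share only replicate number 1. With 12715 tags kept, no listed peak had fewer than 2 tags, and places below that were not detectable at this depth.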
